A study of Mus musculus with 15 samples.

Results

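Serpin genes encode a superfamily of serine protease inhibitors and related carrier proteins. All protein-coding genes of the GENCODE annotation on mm10 (GRCm38) with a symbol starting with Serpin were taken, which gave 61 of 21755 protein-coding genes, and no measured value entered the choice. By the letter after Serpin they fall into clades, with 24 genes in clade A, 26 in clade B, 3 in clade E, 2 each in clades F and I, and 1 each in clades C, D, G and H. The data are lists of regions enriched for H3K4me3, trimethylation of lysine 4 of histone H3, a mark found around the transcription start sites (TSSs) of active genes, from the livers of 15 mice, labelled as C57BL/6 (C57BL/6J in the study's methods) and 12 months old. The liver of each mouse was fixed in formalin, embedded in paraffin and processed by PAT-ChIP, a chromatin immunoprecipitation from such blocks, and gave 1 library. The groups, with 3 mice each, received a standard diet ad libitum (SD), caloric restriction (CR), a high-fat diet ad libitum (HF), a yellow corn-based diet ad libitum (YD) or a purple corn-based diet ad libitum (RD). All mice were females that, by the methods of the study, entered the diets at 3 months of age for 10 months. CR was 70% of the normal calories of the standard formula. YD and RD held near-isogenic corn without and with anthocyanins.

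Most serpins expose a reactive centre loop that a target protease cuts, after which the serpin changes shape and traps the protease in a covalent complex. Hepatocytes secrete many members of clades A, C, D, F and G into plasma, where they restrain the proteases of coagulation, fibrinolysis, complement and inflammation, while some clade A members bind hormones and inhibit no protease. Clade B members lack a classical signal peptide and act mainly inside cells, many of them in leukocytes and epithelia. In the mouse, clades A and B have expanded into clusters of similar neighbouring genes.

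The DNA upstream of the start is shown for the members on which the results turn. The sequences are the 150 bases before the RefSeq start (GRCm38.p6), written 5′ to 3′ on the gene's strand. CCAAT on either strand and GTTAAT are in capitals. Where ATTGG, which is CCAAT on the other strand, overlaps GTTAAT, they form a single capital run. The first set is the alpha-1-antitrypsin family, Serpina1a to Serpina1e, shown since near-identical copies differed in whether an island was listed. They lie on the minus strand at chr12:103863620-103863769, chr12:103738190-103738339, chr12:103904951-103905100, chr12:103773634-103773783 and chr12:103956898-103957047.

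Serpina1a: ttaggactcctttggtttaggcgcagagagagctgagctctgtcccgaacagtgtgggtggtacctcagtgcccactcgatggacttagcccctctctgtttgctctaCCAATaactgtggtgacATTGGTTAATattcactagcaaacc
Serpina1b: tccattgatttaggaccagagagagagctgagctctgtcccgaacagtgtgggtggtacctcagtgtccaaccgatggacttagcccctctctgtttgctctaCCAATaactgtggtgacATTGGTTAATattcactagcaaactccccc
Serpina1c: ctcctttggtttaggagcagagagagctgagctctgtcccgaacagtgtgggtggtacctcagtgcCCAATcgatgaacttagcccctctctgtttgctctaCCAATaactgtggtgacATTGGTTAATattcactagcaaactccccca
Serpina1d: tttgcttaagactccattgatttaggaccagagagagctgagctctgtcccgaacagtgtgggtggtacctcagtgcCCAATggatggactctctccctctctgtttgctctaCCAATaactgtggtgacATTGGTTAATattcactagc
Serpina1e: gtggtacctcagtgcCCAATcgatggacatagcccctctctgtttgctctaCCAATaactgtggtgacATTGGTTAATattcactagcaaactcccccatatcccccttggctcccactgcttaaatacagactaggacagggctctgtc

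The family shares the block from CCAAT to ATTGGTTAAT in all 5 copies. The 300-base RefSeq promoters, from 250 bases before to 50 bases after the start, were 91.4% (Serpina1c and Serpina1d) to 97.6% (Serpina1b and Serpina1e) identical over their aligned parts. The second set holds Serpinf2 (chr11:75439502-75439651, minus strand) as a plasma serpin with an island in most libraries and few CpG dinucleotides, Serpinb8 (chr1:107589856-107590005, plus strand) as the member with islands in every HF mouse and in no mouse of another diet, and Serpini1 (chr3:75557343-75557492, plus strand) as a member with islands in every library.

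Serpinf2: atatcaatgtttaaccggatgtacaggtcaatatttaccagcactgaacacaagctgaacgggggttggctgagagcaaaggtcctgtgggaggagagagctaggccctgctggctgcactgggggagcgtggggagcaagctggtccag
Serpinb8: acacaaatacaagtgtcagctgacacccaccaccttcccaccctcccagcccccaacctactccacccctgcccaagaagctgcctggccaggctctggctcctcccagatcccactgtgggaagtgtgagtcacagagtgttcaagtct
Serpini1: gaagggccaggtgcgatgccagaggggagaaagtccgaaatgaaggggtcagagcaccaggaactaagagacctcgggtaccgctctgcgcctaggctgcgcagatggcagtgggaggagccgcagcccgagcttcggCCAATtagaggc

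The sequences of Serpinf2 and Serpinb8 hold neither motif in this stretch. They hold 3 and 0 CpG dinucleotides, and that of Serpini1 holds 9.

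An island is a region that SICER2 joined from enriched windows of 200 bp, and a gene was counted as marked when an island lay within 1 kb of any of its TSSs. The lists held between 7825 and 33752 islands, and the reads behind them, recovered from the deposited scores, ranged from 5589269 to 15449854 per library. Hepatocyte markers had an island for 6 to 12 of 12 genes per library (median 11), and no lymphocyte, neutrophil or erythroid marker had an island in any library (8, 6 and 5 genes). The hepatocyte list includes Serpina1a, itself a Serpin gene. Its least often listed gene was Alb, the gene of albumin, with an island in 8 libraries and in no CR mouse. Since the lists hold no read counts per gene, a gene without an island was not called, which is not the same as a gene without the mark, and a height at an island listed in both groups was not measured. In whole liver, fewer cells of a type and less mark per cell cannot be told apart.

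Of the 61 Serpin genes, 34 (55.7%) had no island in any library, against 40.0% of the protein-coding genes. A further 10 were marked in 1 to 3 libraries, 4 in 4 to 8, 11 in 9 to 14 (18.0% against 27.6% of coding genes), and 2 in all 15 (3.28% against 9.46%). The 2 were Serpinc1 and Serpini1. The 11 genes of the next class were Serpina1a, Serpina1b, Serpina1d, Serpina3m, Serpina6, Serpina10, Serpinb6a, Serpind1, Serpinf1, Serpinf2 and Serping1, of which all but Serpinb6a encode secreted proteins of plasma or the extracellular space.

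**Figure D1:**
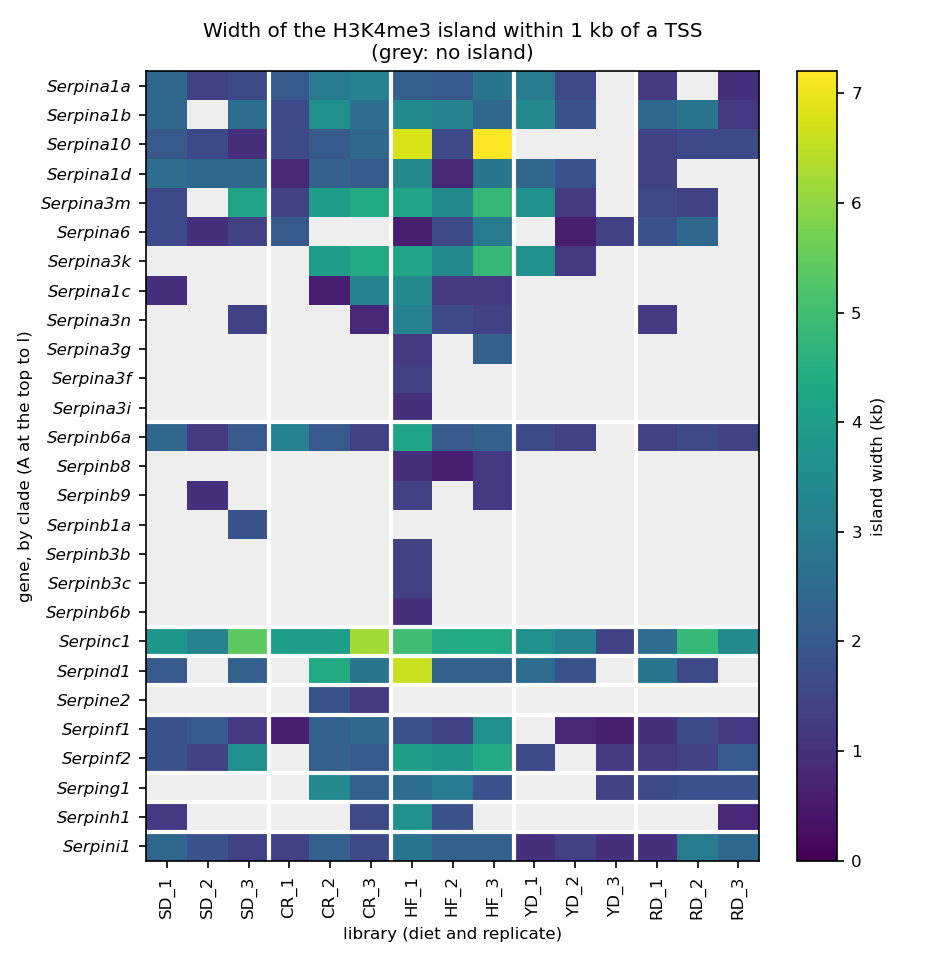
Width in kb of the widest H3K4me3 island within 1 kb of a TSS, for the 27 Serpin genes with an island in at least 1 library (rows, by clade) in the 15 libraries (columns, by diet). Grey marks no island, Serpinc1 and Serpini1 are filled throughout, and Serpinb8 is filled in HF only.

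The clusters differed in how often their genes were marked. The 23 clade A genes on chromosome 12 span 775 kb, and 12 of them were marked in at least 1 library, with an island in 27.8% of the 345 pairs of gene and library. The 11 clade B genes on chromosome 1 span 745 kb and had an island in 3.03% of 165 pairs. The 15 clade B genes on chromosome 13, over 1157 kb, had an island in 8.44% of 225 pairs, and 14 of these 19 pairs came from Serpinb6a alone. The 11 genes of clades C to I, scattered over the genome, had an island in 50.9% of 165 pairs. These shares describe the members and carry no test, since neighbouring copies share sequence and genes of 1 library share its depth.

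Among the 34 genes without an island were Serpina7 and Serpina12, which encode thyroxine-binding globulin and vaspin, Serpina5, Serpina11, Serpini2 and 19 of the 26 clade B genes. The island nearest to Serpina1e lay 19.3 kb away at the closest and 93.3 kb in the median library. With a reach of 3 kb in place of 1 kb, only Serpinb7 of these 34 gained an island, in the library YD_3 alone, where it lay 2.09 kb away.

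Serpin promoters held few CpG dinucleotides. The RefSeq promoter table matched 52 of the 61 members, and among the other 9 were Serpina3k, Serpina3m, Serpina6, Serpina9, Serpina10, Serpinb1a, Serpinb13 and Serping1. The median was 3 CpG per 300-base promoter for the Serpin genes and 14 over 16433 coding genes, and 6 of 52 (11.5%) held at least 10 against 59.2% of the coding genes. Among genes marked in at least 9 libraries the medians were 4 CpG for the 9 matched Serpin genes and 22 for 6392 coding genes, and 2 of the 9 held at least 10. The 9 include Serpinc1, whose promoter of 4 CpG lies at a start marked in 5 libraries and not at its island inside the gene. The promoters richest in CpG were those of Serpine2 (41), Serpinb6a (25), Serpinh1 (16) and Serpini1 (15), which were marked in 2, 14, 5 and 15 libraries. TATAAA was searched on both strands like the other motifs and stood in 14 of the 52 promoters (26.9% against 12.8% of coding genes). Of the genes marked in at least 9 libraries, it stood in none of the 9 matched Serpin promoters and in 6.45% of the coding promoters. GTTAAT stood in 11 of 52 (21.2% against 6.12%) and CCAAT in 19 of 52 (36.5% against 38.8%). A motif match is a description of letters, not of a bound factor.

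**Figure D2:**
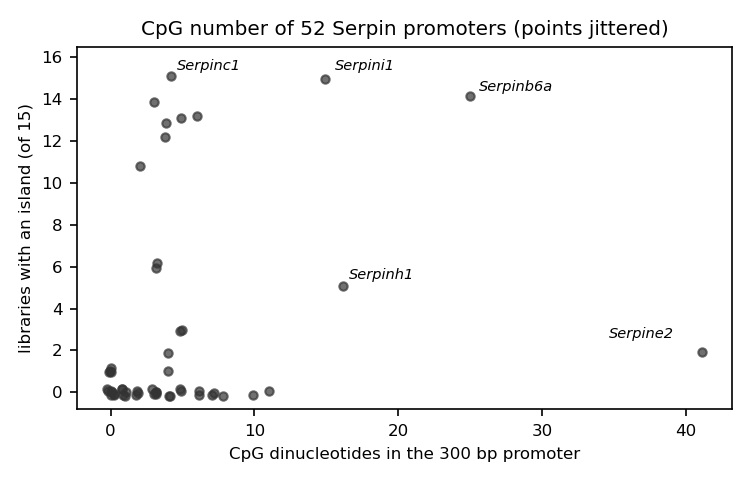
Number of CpG dinucleotides in the 300 bp promoter (x axis) against the number of libraries with an island (y axis, of 15) for the 52 Serpin genes in the RefSeq promoter table, 1 point a gene with small jitter. All but 6 of the 52 points lie below 10 CpG, and Serpinb6a, Serpinh1, Serpini1 and Serpine2 stand to the right. Islands at any TSS count, so that Serpinc1 stands at 15 libraries though the start at its plotted promoter was marked in 5.

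Serpinc1 encodes antithrombin, the main plasma inhibitor of thrombin and factor Xa. Its island measured 3800, 3200 and 5400 bp in SD, 4000, 4000 and 6200 bp in CR, 5000, 4400 and 4400 bp in HF, 3600, 3200 and 1400 bp in YD, and 2600, 4800 and 3400 bp in RD, in the order of replicates 1 to 3. The lowest value was that of YD_3 and the highest that of CR_3, and the diets overlapped. The median of 4000 bp was wider than that of 90.8% of the 2059 coding genes marked in all libraries (median 2400 bp), and the median score percentile, the percent of islands of the same list with a lower score, was 96.5. Serpind1 encodes heparin cofactor II, another thrombin inhibitor. Its widths were 2000, 0 and 2200 bp in SD, 0, 4400 and 2800 bp in CR, 6600, 2200 and 2200 bp in HF, 2600, 1800 and 0 bp in YD, and 2800, 1600 and 0 bp in RD, where 0 is no island. It was thus unmarked in 1 mouse of each diet but HF, and HF_1 had the widest island.

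Serpinc1 owed its place among the genes marked throughout to a region inside the gene. The island lay with its centre 10.6 kb downstream of the start of the principal transcript in the median library, at 2 further annotated starts that belong to shorter retained-intron or nonsense-mediated decay transcripts of the gene. The start of the principal transcript (chr1:160978646) had an island within 1 kb in 5 libraries, SD_1, CR_2, CR_3, HF_1 and HF_2. Serpini1, which encodes the neuronal inhibitor neuroserpin, was the other gene marked throughout, and its island was shared with the start of Pdcd10 in 15 of 15 libraries. That island lay upstream, with its centre at -846.5 bp in the median library, and held the TSS of Serpini1 itself in 7 libraries. It measured 2400, 1800 and 1400 bp in SD, 1400, 2200 and 1600 bp in CR, 2800, 2200 and 2200 bp in HF, 1000, 1400 and 1000 bp in YD, and 1000, 3000 and 2400 bp in RD. It was narrow among genes marked in all libraries, with a median of 1800 bp that was wider than that of 9.86% of them, so that the mark at Serpini1 cannot be told apart from that of its neighbour.

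Serpina10 encodes the protein Z-dependent protease inhibitor, which inhibits factor Xa. Its island measured 2000, 1600 and 1000 bp in SD, 1600, 2000 and 2400 bp in CR, 6800, 1600 and 7200 bp in HF, 0, 0 and 0 bp in YD, and 1400, 1600 and 1600 bp in RD. It was listed in every mouse of SD, CR, HF and RD and in no YD mouse, and the islands of HF_1 and HF_3 were far wider than those of all other libraries.

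Among the inhibitors of fibrinolysis, Serpinf2 encodes alpha-2-antiplasmin, which inhibits plasmin. Its island measured 1800, 1400 and 3600 bp in SD, 0, 2200 and 2000 bp in CR, 4000, 3800 and 4400 bp in HF, 1600, 0 and 1200 bp in YD, and 1200, 1400 and 2000 bp in RD. Every HF value exceeded every other value, while CR_1 and YD_2 had no island. Serpine2, which encodes protease nexin 1, a cell-associated inhibitor of thrombin and plasminogen activators, had islands of 1800 bp in CR_2 and 1200 bp in CR_3 and in no other library. Serpine3 had none.

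Of the alpha-1-antitrypsin family, which inhibits neutrophil elastase, Serpina1a and Serpina1b were marked in 13 libraries, Serpina1d in 12, Serpina1c in 6 and Serpina1e in 0. The island at Serpina1a measured 2400, 1400 and 1600 bp in SD, 2000, 3000 and 3200 bp in CR, 2200, 2000 and 2800 bp in HF, 3000, 1600 and 0 bp in YD, and 1200, 0 and 1000 bp in RD. That at Serpina1b measured 2400, 0 and 2600 bp in SD, 1600, 3600 and 2600 bp in CR, 3400, 3200 and 2400 bp in HF, 3400, 1800 and 0 bp in YD, and 2400, 2800 and 1200 bp in RD. In both genes the HF mice lay within the range of the CR mice. Serpina1c had 1000 bp in SD_1, 600 and 3200 bp in CR_2 and CR_3, 3400, 1200 and 1200 bp in HF, and no island in YD or RD. Serpina1d had 2600, 2400 and 2400 bp in SD, 800, 2200 and 2000 bp in CR, and 3400, 800 and 2800 bp in HF. In YD it had 2400, 1800 and 0 bp, and in RD 1400, 0 and 0 bp. Of the 50-base words within 1 kb of the TSSs, the read length of the study, 54.1% (Serpina1d) to 66.7% (Serpina1e) occurred once in the genome, against a median of 97.2% over the Serpin genes and 98.9% over coding genes. Reads with a MAPQ under 1 had been removed, and the part of this in the islands of the family was not tested. From Serpina1a to Serpina1e the shares were 64.6%, 62.6%, 58.4%, 54.1% and 66.7%, taken around the TSSs and not over the islands.

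The Serpina3 genes are the mouse relatives of the antichymotrypsin gene, several of which are acute phase genes of liver. Serpina3k measured 0, 0 and 0 bp in SD, 0, 4000 and 4400 bp in CR, 4200, 3400 and 4800 bp in HF, 3600, 1200 and 0 bp in YD, and 0, 0 and 0 bp in RD. Within 1 kb it was listed in every HF mouse, in 2 mice each of CR and YD, and in no SD or RD mouse. Its absence from SD did not hold with a reach of 3 kb, as given below. Serpina3k shares a TSS with a transcript assigned to Serpina3m (chr12:104338486), so that every island of Serpina3k also counted for Serpina3m. Serpina3m has a second TSS (chr12:104387164) with an island in 11 libraries, and this one also gave the gene an island in SD and RD. Serpina3n was marked in 6 libraries, with 3200, 1600 and 1400 bp in HF and 800 to 1400 bp in SD_3, CR_3 and RD_1. Serpina3g was marked in HF_1 and HF_3, with 1200 and 2200 bp, and Serpina3f and Serpina3i in HF_1 alone.

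Of the hormone carriers, Serpina6, which encodes corticosteroid-binding globulin, was marked in 11 libraries, with widths of 1600, 1000 and 1400 bp in SD, 2000, 0 and 0 bp in CR, 600, 1600 and 3000 bp in HF, 0, 600 and 1400 bp in YD, and 1800, 2400 and 0 bp in RD. It had an island in every SD and HF mouse and in 1 CR mouse, and the widths of all diets overlapped. The thyroxine carrier Serpina7, on chromosome X, had no island within 177.2 kb in any library.

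Serping1 encodes the C1 inhibitor, which controls the first proteases of complement and the contact system. Its island measured 0, 0 and 0 bp in SD, 0, 3400 and 2200 bp in CR, 2600, 3000 and 1800 bp in HF, 0, 0 and 1400 bp in YD, and 1600, 1800 and 1800 bp in RD. It was listed in every HF and RD mouse and in no SD mouse. Serpinf1, which encodes pigment epithelium-derived factor, was marked in 14 libraries, with widths of 1800, 2000 and 1200 bp in SD, 600, 2200 and 2400 bp in CR, 1800, 1400 and 3600 bp in HF, 0, 800 and 600 bp in YD, and 1000, 1600 and 1200 bp in RD. Only YD_1 lacked its island. The YD values lay below those of every SD, HF and RD mouse and overlapped those of CR, and the difference of YD from SD was -1.76 (SE 0.753, limma, adjusted p = 0.165). Serpinh1 encodes a collagen chaperone of the endoplasmic reticulum that is no protease inhibitor, and it had 1200 bp in SD_1, 1600 bp in CR_3, 3600 and 1800 bp in HF_1 and HF_2, and 800 bp in RD_3.

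In clade B, Serpinb6a, an intracellular inhibitor of several trypsin-like proteases and cathepsin G, was marked in 14 libraries, with 2400, 1200 and 2000 bp in SD, 3200, 2000 and 1400 bp in CR, 4200, 2000 and 2200 bp in HF, 1600, 1400 and 0 bp in YD, and 1400, 1600 and 1400 bp in RD. Its starts fall into 3 groups, and the one marked in 14 libraries lies beside the start of Ripk1, with which the island was shared in 12 libraries. A start group inside the gene was marked in 8 libraries. In SD_1 and HF_2 the widest island lay there, so that their widths of 2400 and 2000 bp are not those of the start beside Ripk1. Serpinb8 was marked in the 3 HF mice alone, with 1000, 600 and 1200 bp. Serpinb9, the inhibitor of granzyme B, had 1000 bp in SD_2, 1400 bp in HF_1 and 1200 bp in HF_3. Serpinb1a, an inhibitor of neutrophil proteases, had 1800 bp in SD_3 alone, and Serpinb3b, Serpinb3c and Serpinb6b were marked in HF_1 alone, the first 2 through a shared island. HF_1 was thus the only source of 5 of the 27 marked Serpin genes.

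Most islands reached from the start into the gene. Among the secreted members, the median island at Serpina10 began 21 bp inside the TSS nearest to it and ended 1720 bp inside, that at Serping1 began 128 bp inside and ended 1927 bp inside, and that at Serpina1b ran from 158 to 2957 bp inside. The island reached further downstream than upstream in all marked libraries of Serpina1a, Serpina1b, Serpina1c, Serpina1d, Serpina6, Serpina10, Serpina3k, Serpind1, Serpinf1 and Serpinf2. Serpinb6a and Serpini1, with CpG-rich promoters beside another gene's start, reached further downstream in 4 of 14 and 0 of 15 libraries. Serpinc1, whose island no other coding gene shared, did so in 5 of 15, counted from the annotated start nearest to the island. The 4 of Serpinb6a include HF_2, whose island lay at the start group inside the gene.

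**Figure D3:**
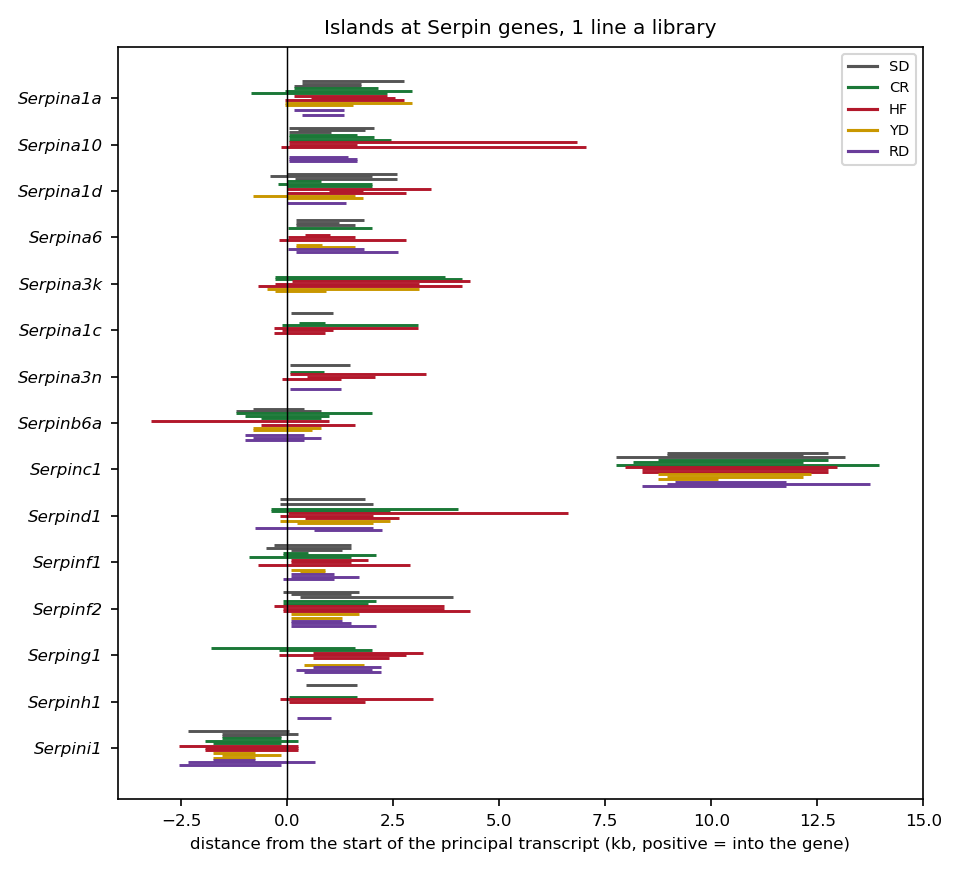
Extent of the islands around the start of the principal transcript (x axis, distance in kb, positive into the gene) for 15 Serpin genes marked in at least 4 libraries, with 1 line a library coloured by diet. Serpinc1 stands about 10.6 kb inside the gene, and 2 islands of Serpinb6a lie beyond the axis. Serpina1b and Serpina3m are left out, since their principal transcripts start far upstream or at the start of another gene.

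By diet, HF mice had the most marked Serpin genes and YD mice the fewest. The number was 14, 10 and 14 in SD (12.7 ± 2.31, SD, n = 3), 10, 15 and 17 in CR (14 ± 3.61), 25, 18 and 19 in HF (20.7 ± 3.79), 10, 11 and 6 in YD (9 ± 2.65) and 14, 11 and 10 in RD (11.7 ± 2.08). Every HF mouse had more than every other mouse, while the SD, CR, YD and RD mice overlapped. The share of all coding genes moved in the same order for HF and YD, with 51.2% in HF, 43.4% in CR, 39.6% in SD, 31.2% in RD and 22.8% in YD, beside 33.9%, 23.0%, 20.8%, 19.1% and 14.8% of the Serpin genes. When each list was held to its 7825 highest-scoring islands, the Serpin means were 13.7 ± 1.53 in HF, 9.67 ± 2.08 in SD, 9.67 ± 4.16 in CR, 8 ± 2.65 in YD and 6.33 ± 3.79 in RD. The HF mean stayed highest. The RD mean came below that of YD, a difference smaller than the SD of either.

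**Figure D4:**
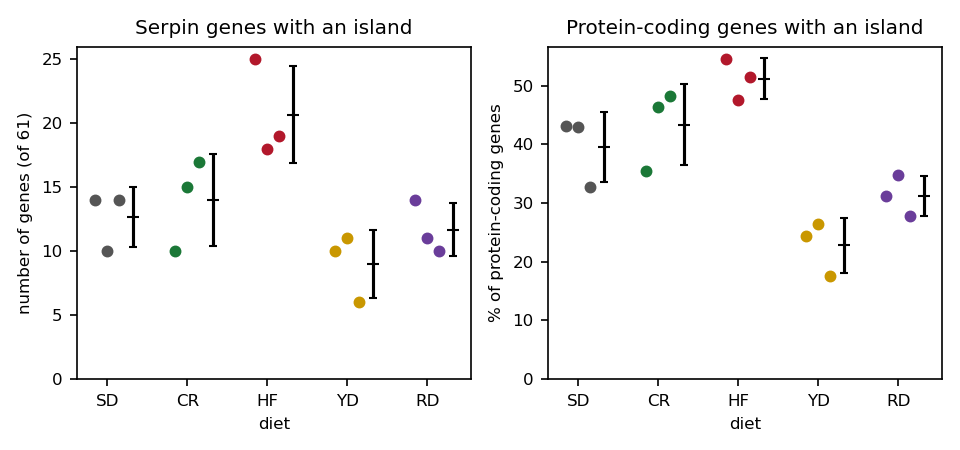
Left, number of Serpin genes (of 61) with an island in each mouse, by diet. Right, percent of 21755 protein-coding genes with an island. Points are mice and the bar beside them gives the mean and SD of 3 mice. The HF mean is highest and the YD mean lowest in both panels.

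Clade A made up the largest part of the difference between HF and each other diet. It had 9 to 12 marked genes in HF mice (10.3 ± 1.53, SD, n = 3) against 4 to 7 in SD (6 ± 1.73), 6 to 8 in CR (7 ± 1), 1 to 6 in YD (4 ± 2.65) and 3 to 7 in RD (4.67 ± 2.08). Clade B had 2 to 6 marked genes in HF (3.67 ± 2.08) and 0 to 2 in every other diet. Clade C and clade I had their 1 marked gene in all mice. The median width of the Serpin islands present was 2400 ± 400 bp in HF, 2067 ± 416 bp in CR, 1833 ± 839 bp in YD, 1800 ± 265 bp in SD and 1500 ± 100 bp in RD (SD, n = 3 libraries). The RD libraries, at 1400 to 1600 bp, lay below the HF libraries, at 2000 to 2800 bp, and the medians over coding genes were 1733 ± 416 and 2267 ± 416 bp.

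Whether a diet added or removed the mark was asked in 5 comparisons, 4 of them against SD, which share the SD mice, and RD against YD, which shares the mice of both with the others. A gene counted as gained when its island was listed in 2 or 3 mice of the first diet and in none of the second, and as lost in the opposite case, and this rule carries no test. HF against SD gained 4 Serpin genes (6.56% of 61), Serpina3g, Serpina3k, Serpinb8 and Serping1, beside 4.69% of coding genes, and lost 0 beside 0.0735%. CR against SD gained 3 (4.92%), Serpina3k, Serpine2 and Serping1, beside 1.79%, and lost 0 beside 0.336%. YD against SD gained Serpina3k (1.64%) beside 0.0368% and lost Serpina10 (1.64%) beside 9.46%. RD against SD gained Serping1 (1.64%) beside 0.221% and lost 0 beside 3.92%. RD against YD gained Serpina10 beside 3.81% and lost Serpina3k beside 0.244%. These are 1 to 4 genes, and the shares of Serpin genes rest on them.

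Island widths were then compared on the scale of log2(width + 200 bp), with 0 for no island, by limma over the 11200 coding genes marked in at least 3 libraries. Of the 61 Serpin genes, 19 were tested, and the other 42 had too few islands. A difference on this scale of a gene without islands in a group depends on the added 200 bp and is not a fold change of width. Serpinb8 entered the test only through its HF islands, and Serpinb9 through those of HF_1 and HF_3 with that of SD_2.

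In HF against SD, limma called Serpina3k and Serpinb8 wider among 19 Serpin genes, beside 2.39% of all genes tested, and no Serpin gene narrower beside 0.0179%. Since Serpinb8 passed the filter through HF itself, only the call of Serpina3k is read as a test. Serpina3k differed by 4.42 (SE 1.12, limma, Benjamini-Hochberg adjusted p = 0.0412), with islands in 3 of 3 HF and 0 of 3 SD mice. Serpinb8 differed by 2.46 (SE 0.601), a value given as a description. Serping1 had the same pattern and missed the threshold, with 3.71 (SE 1.01, adjusted p = 0.0606, or 0.0128 with CR_1 left out of the fit). Without any single HF mouse its adjusted p was 0.138 to 0.304 (limma), and with lists of equal length 0.237. With the TSS inside the island the difference of Serping1 was 1.33 (limma, adjusted p = 0.691). Serpina10, wide in 2 of 3 HF mice, differed by 1.43 (SE 0.679, adjusted p = 0.368). The median difference was 1.43 over the 19 Serpin genes and 0.64 over all genes tested, but 0.59 and 0.57 without SD_2. The 19 genes include Serpinb8 and Serpinb9, which passed the filter with their HF islands, so that the median of 1.43 is a description. The call of Serpina3k was lost without any single HF or SD mouse, with differences of 4.31 to 4.55 (adjusted p = 0.0679 to 0.255), and with lists of equal length, with a difference of 4.42 (adjusted p = 0.208). A reach of 3 kb (2.37, limma, adjusted p = 0.359) and the TSS inside the island (2.94, adjusted p = 0.320) also removed it. So did the score rank (adjusted p = 0.0996) and centring on the library median (adjusted p = 0.324). At 3 kb, the difference of RD from SD at Serpina3k was -2.06, so that the SD lists were not all empty there.

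As lists, the markers of sinusoidal endothelial, stellate and Kupffer cells had islands most often in HF. The share of all coding genes was also highest there, with 51.2% in HF, 43.4% in CR, 39.6% in SD, 31.2% in RD and 22.8% in YD. Sinusoidal endothelial markers had an island for 3 to 8 of 8 genes in HF mice, 0 to 5 in SD, 2 to 3 in CR, 0 in YD and 0 to 1 in RD. Of these, Stab1 went the other way, with 3 CR, 2 SD and 1 HF mice, and Stab2 had 1 mouse each in SD, CR and HF. Stellate cell markers had 1 to 5 of 8 in HF and 0 to 1 in every other diet, with Col1a1 at 0 in all libraries. Kupffer cell markers had 0 to 4 of 8 in HF and 0 to 1 elsewhere, with Vsig4, Timd4, Marco and Csf1r at 0 in all libraries. Cholangiocyte markers had 0 to 2 of 6 in CR, 0 to 1 in SD and HF and 0 in YD and RD, with Krt19, Epcam, Spp1 and Cftr at 0 in all libraries. The part of these cells in the HF values of Serpinb8, Serpinb9, Serpinh1 and Serping1 was not tested. PATChIP appears in the names of 5 deposited lists (2 of CR, HF_2 and HF_3, and 1 of RD) and ChIP in the other 10, so that HF against SD within the ChIP form is HF_1 against the SD mice, with 4200 against 0 bp for Serpina3k and 1000 against 0 bp for Serpinb8.

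In YD against SD, Serpina10 was called narrower, 1 of 19 Serpin genes beside 5.92% of all genes tested, and no Serpin gene was called wider beside 0%. The difference was -3.07 (SE 0.679, limma, adjusted p = 0.0191), from islands of 1000 to 2000 bp in 3 of 3 SD mice to none in 3 of 3 YD mice. All 6 libraries have the ChIP form of name. The median difference was -0.86 over the 19 Serpin genes and -1.08 over all genes tested, -0.24 and -0.77 without YD_3, and -1.35 and -1.12 without SD_2. The call was lost without SD_1 (-2.88, adjusted p = 0.0855) or SD_2 (-3.02, adjusted p = 0.0614) and with lists of equal length (-3.07, adjusted p = 0.183). Centring on the library median also removed it (-0.63, limma, adjusted p = 0.607), a setting whose limit is given below.

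In RD against YD, which compares corn with and without anthocyanins, Serpina10 was called wider, 1 of 19 Serpin genes beside 0.786% of all genes tested, and no Serpin gene narrower beside 0.0179%. It differed by 3.11 (SE 0.679, limma, adjusted p = 0.0356), with 1400, 1600 and 1600 bp in RD and no island in YD. The difference of RD from SD at Serpina10 was 0.04 (SE 0.679, limma, adjusted p = 1). The RD against YD call was lost without any single RD mouse (adjusted p = 0.0667 to 0.0814) and without YD_3 (adjusted p = 0.0507), and with lists of equal length the difference was 2.06 (adjusted p = 0.853). With centring on the library median it was 1.09 (limma, adjusted p = 0.309). The replicate number as a block gave an adjusted p of 0.0743 here and 0.0664 for Serpina3k in HF against SD, so that these calls were lost, and 0.0358 for Serpina10 in YD against SD.

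**Figure D5:**
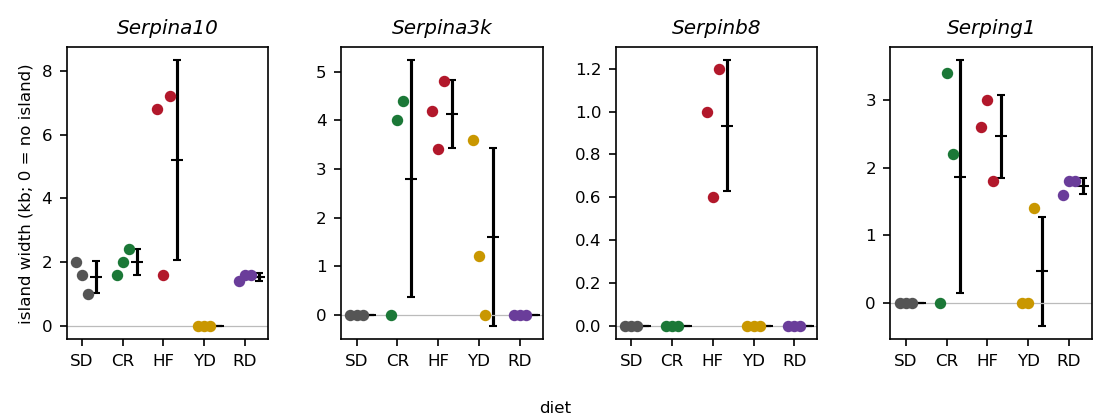
Island width in kb (0 for no island) in each mouse by diet for Serpina10, Serpina3k, Serpinb8 and Serping1, with the mean and SD of 3 mice beside the points; the y axes differ between genes. Serpina10 is at 0 in all YD mice, Serpina3k in all SD and RD mice, Serpinb8 everywhere but in HF, and Serping1 in all SD mice.

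In CR against SD and in RD against SD, limma called 0 Serpin genes, and 0 of 11200 genes in either direction (0%). At an unadjusted p under 0.05, 2 Serpin genes passed beside 587 genes in CR, and 2 beside 1228 in RD. Serpina3k in CR differed by 2.97 (SE 1.12, limma, adjusted p = 0.939) and Serping1 by 2.58 (SE 1.01, adjusted p = 0.939), each with an island in 2 of 3 CR mice. Serping1 in RD differed by 3.27 (SE 1.01, adjusted p = 0.215), with islands of 1600, 1800 and 1800 bp in 3 of 3 mice. The other gene in RD went down: Serpina1d differed by -2.74 (SE 0.989, limma, adjusted p = 0.363), with 2600, 2400 and 2400 bp in SD and 1400, 0 and 0 bp in RD. For single genes, an exact permutation test of 3 mice against 3 cannot give a two-sided p under 0.1.

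The proteases that serpins restrain were marked in part. Of 12 coagulation and fibrinolysis proteases, 2 to 11 had an island per library (median 6), with means of 9 in HF, 7 in CR, 6 in SD, 4.67 in RD and 3.33 in YD. The share of all coding genes had the same order, with 51.2%, 43.4%, 39.6%, 31.2% and 22.8%, so that this order is not particular to the proteases. F2, the gene of prothrombin and the target of antithrombin, was marked in 15 libraries and Plg, the gene of plasminogen, in 14, while Plat, the gene of tissue plasminogen activator, had none. Of 8 complement proteases, 2 to 7 were marked, with a mean of 2.67 in YD and 6 in HF. Of 10 leukocyte serine proteases, the targets of several clade A and B members, 0 or 1 was marked, and of 7 cysteine cathepsins, 4 to 6. Among 9 transcription factors known to act on liver serpin genes, 4 to 9 were marked (median 8), with Hnf4a, Cebpa and Stat3 among those marked in every library, and of 6 cofactors and receptors of serpins, 3 to 5.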

How the data were processed

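The 15 lists came from PAT-ChIP-seq of H3K4me3 in mouse liver. The authors mapped 50 bp reads (BWA, mm10), kept reads other than duplicates on chromosomes 1 to 19 and X with a MAPQ of at least 1 (SAMtools), and called islands per library with SICER2 (window 200 bp, gap 400 bp, FDR threshold 0.05). The deposited score of an island is a sum over windows that is not scaled between libraries, and it served only to rank islands within a list. The deposited lists hold no counts and replicates were not pooled.

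Groups came from the sample labels. Replicates are separate mice, so errors and p-values measure the spread between mice. Reads per library were recovered from the score steps of islands of a single window, with an effective genome fraction of 0.74, and intervals for counting error were not computed. TSSs were those of GENCODE M21. The widest island within 1 kb of any TSS was taken per gene, and widths were compared as log2(width + 200 bp) in 1 limma fit over all 15 libraries (limma 3.58.1 in R 4.3.3, trend and robust variance) for genes marked in at least 3 libraries, with Benjamini-Hochberg adjustment at 0.05 over all genes tested. Python 3.11.15 was used otherwise. The fit was tested on simulated data. Promoter sequences were from RefSeq (GRCm38.p6).

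Named were the Serpin genes marked in all libraries, those gained, lost or called in any comparison, and well-known members; Serpina1c, Serpina3f, Serpina3i, Serpina3m, Serpinb3b, Serpinb3c, Serpinb6b, Serpinb7 and others outside this rule were named after their values were seen. The members and gene lists were chosen with earlier results of these data known. The alternatives were a reach of 3 kb, a TSS inside the island, the 7825 highest-scoring islands of each list, islands of at least 600 bp, basic transcripts, the score rank, centring on the library median, no filter on libraries, islands in all 3 mice, the replicate number as a block and the omission of each mouse, and, chosen after seeing the data, the principal transcript alone. Expression and reads were not analysed here, and a few genes are not reported here.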

Additional observations from a re-analysis of the deposited data

How the results depend on the processing

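The number of Serpin genes with an island in the mean mouse moved, when the TSS had to lie inside the island, to 14.7 in HF, 10 in CR, 7 in SD, 6 in RD and 5.33 in YD. With lists of equal length it was 13.7 in HF, 9.67 in both SD and CR, and 6.33 in RD, and with the principal transcript alone, which was chosen after seeing the data, 9 in RD. Leaving out each mouse in turn gave 18.5 to 22 in HF, 12.5 to 16 in CR, 12 to 14 in SD, 10.5 to 12.5 in RD and 8 to 10.5 in YD. The count of genes gained or lost became 0 in CR against SD, 1 in YD against SD and 1 in RD against YD when islands were required in all 3 mice. With lists of equal length it became 2 in HF against SD, 1 in YD against SD, 3 in RD against SD and 4 in RD against YD. With a reach of 3 kb it became 1 in YD against SD and 2 in RD against SD, and with the TSS inside the island 0 in RD against SD. Without each mouse in turn the count ranged from 0 to 4 in CR against SD, from 3 to 6 in HF against SD, from 1 to 2 in YD against SD, from 1 to 2 in RD against SD and from 1 to 3 in RD against YD.

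The number of Serpin genes called by width in HF against SD fell from 2 to 1 with a reach of 3 kb or the TSS inside the island, and to 0 with lists of equal length, the score rank, centring on the library median or the replicate block. Serpinb8 had too few islands to be tested with lists of equal length or without any single HF mouse. In YD against SD it fell from 1 to 0 with lists of equal length. In RD against YD it fell from 1 to 0 with lists of equal length, the score rank, no filter or the replicate block. With the TSS inside the island the number was also 0 in both, but Serpina10 was not tested there. Its TSS lay inside an island in 1 library, so that this setting cannot say whether its calls hold. Centring on the library median turned the direction, with 4 Serpin genes called higher in YD against SD (1750 genes in all) and 4 called lower in RD against YD (1903 in all). Serpina10 was not called in either centred comparison. There, 53% and 66.3% of the genes tested had no island in YD_1 and YD_3, so that the median taken off was the value of no island. Without each mouse of the compared diets in turn, the calls were 0 to 0 in CR against SD, HF against SD and RD against SD, and 0 to 1 in YD against SD and in RD against YD. The count over all genes also moved, to 0 in HF against SD without HF_1, 1 without HF_3 and 104 without SD_3, to 9 in YD against SD without SD_1, 97 without SD_2, 188 without YD_3 and 1548 without YD_1, and to 24 to 387 in RD against YD. The count of all genes was 147 in HF against SD and 20 in RD against YD under the replicate block. The numbers do not pair the mice: deviations of same-numbered mice of different diets correlated at -0.0050 on average (30 pairs, -0.104 to 0.0900), and 2 of 15 libraries correlated best with their own number.

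Mice outside a comparison enter a call through the shared variance: Serpina3k in HF against SD also missed the threshold without any RD mouse (adjusted p 0.0563 to 0.0622) or YD_2 (0.0676), Serpinb8 without YD_1 (0.0590) or YD_3 (0.0682), and Serpina10 in RD against YD without CR_2 (0.0625), CR_3 (0.0557), any HF mouse (0.0654 to 0.0864) or SD_1 (0.0516). Without CR_1, Serping1 passed in HF against SD (0.0128), and 3 Serpin genes were called there. Serpina10 in YD against SD kept its call without any mouse outside the comparison.

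Depth per island was not known, which limits every statement on a gene without an island.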
